A study of Drosophila melanogaster with 12 samples.

Results

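The Bomanin genes encode small secreted peptides of the fly immune response. The 10 genes described here, BomS1 to BomS6, BomT1 to BomT3 and BomBc1, were chosen by symbol from a deposited table of 17816 genes, in which they account for 12 of 35536 transcripts, and all 10 passed the filter on low counts. Bomanins are induced through the Toll pathway, in which recognition proteins of the blood sense bacteria or fungi, a chain of proteases cleaves the ligand Spätzle, and the receptor Toll releases the transcription factors Dif and Dorsal from their inhibitor Cactus. The peptides are made mainly in the fat body, which also lies in the head, and are secreted into the blood; flies without the main gene cluster die readily of fungal and Gram-positive bacterial infection. The short (BomS) peptides consist of little more than a signal sequence and the Bomanin motif, the tailed (BomT) peptides carry an extension after the motif, and the bicipital (BomBc) peptides carry a pair of motifs joined by a linker.

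Messenger RNA was measured in heads, brain included, of Drosophila melanogaster on day 4 of a cycle of light and darkness, at zeitgeber time (ZT) 8, in the light, and at ZT16, in the dark. All flies carried 1 copy of UAS-dicer2 and 1 copy of the driver tim(UAS)-Gal4, and knockdown flies carried in addition 1 copy of UAS-dppil4 RNAi, a hairpin against dppil4. Each of the 4 groups held 3 libraries, and total counts ran from 36885481 to 37676778 per library at ZT8 and from 25844821 to 31848667 at ZT16. The labels do not say whether the libraries came from separate pools of flies, so p-values measure only the spread between these libraries. The tim(UAS)-Gal4 driver acts in cells that express the clock gene timeless, and UAS-dicer2 strengthens RNA interference. The hairpin stood opposite UAS-dicer2, where the control genotype is written as a plus, and the labels do not say whether the backgrounds were matched, so knockdown and genetic background cannot be told apart. The target dppil4 (CG5808), a peptidyl-prolyl isomerase gene, was at 4.81 to 4.93 CPM (counts divided by the scaled library size in units of 1e6 reads) in control and 2.91 to 4.49 in knockdown at ZT8, and at 5.16 to 6.17 and 3.71 to 4.46 at ZT16. Its change passed the test at ZT16 (log2 fold change -0.49 ± 0.16 SE, adjusted p = 0.0427) but not at ZT8 (-0.32 ± 0.15, adjusted p = 0.188), by the edgeR quasi-likelihood test used throughout. Neuron, photoreceptor and glia markers were present in every library. Control ZT16 replicate 1 stood apart, with 712 CPM of midgut markers against at most 21.5 elsewhere and 138 CPM of ovary markers against at most 3.75. Knockdown ZT8 replicate 3 also stood apart, with 884 CPM of Imd-pathway antimicrobial peptides against 59.3 and 70.4 in the other knockdown ZT8 libraries. Where both libraries that stood apart are left out below, only these are meant. Control ZT8 replicate 1 is not among them, although by the median chi-square over genes it differed most from the rest of its group. Its median was 7.30 against replicate 2 and 7.43 against replicate 3, the largest of all pairs within groups. By the chi-square per degree of freedom knockdown ZT8 replicate 3 differed most (176.5 and 192.0), ahead of control ZT8 replicate 1 (135.6 and 125.0).

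Of the 10 genes, 9 lie in a cluster of 9237 bases on chromosome arm 2R (dm6, 18381393 to 18390629), which holds 10 Bomanin genes. From left to right these are BomT1 (18381393 to 18381844), BomBc1 (18382704 to 18383235), BomS1 (18383949 to 18384378), BomS4 (18384567 to 18384911), BomBc2 (18384824 to 18385589), BomS2 (18386602 to 18387030), BomS3 (18387895 to 18388734), BomT2 (18388995 to 18389443), BomS5 (18389959 to 18390242) and BomS6 (18390353 to 18390629). BomT1, BomBc1, BomBc2 and BomS6 are on the minus strand and the others on the plus strand. BomT3 lies elsewhere, on the minus strand of arm 3R (22085374 to 22086397), 677 bases from BomBc3. BomBc2 and BomBc3 are the 2 other Bomanin symbols of the table and were not among the 10. Each of the 10 genes has 2 exons, and the coding length is 117 to 135 bases in the 6 short genes, 189 to 351 in the 3 tailed genes and 351 in BomBc1. BomS4 and BomBc2 overlap by 88 bases on opposite strands, and since the sources used here do not say whether reads were counted by strand, each can hold reads of the other. The genes are related to each other, and RSEM, the authors' quantifier, divides reads that match several transcripts, so reads shared between family members could be split wrongly; how alike the transcripts are was not examined.

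BomBc1, the bicipital gene, differed most between the genotypes. Its level at ZT8 was 18.6, 13.2 and 12.8 CPM among controls versus 83.2, 75.0 and 91.2 CPM among knockdowns. At ZT16 it was 19.2, 11.7 and 9.74 CPM among controls versus 43.6, 50.1 and 61.7 CPM among knockdowns. All 3 knockdown libraries lay above all 3 control libraries at each time. The gap between the groups was wider than the range within either group, by much at ZT8 and by little at ZT16. Its rise was 5.60-fold at ZT8 (2.49 ± 0.25 on the log2 scale, adjusted p = 0.00029) and 3.83-fold at ZT16 (1.94 ± 0.25, adjusted p = 0.000899). In a sample of whole heads, more cells of a type and more RNA per cell cannot be told apart, and this holds for every change given here.

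The short gene BomS2 also rose in knockdown heads at both times. At ZT8 it was at 117, 81.7 and 83.0 CPM among controls versus 277, 230 and 326 CPM among knockdowns. At ZT16 it was at 153, 130 and 115.1 CPM among controls versus 324, 322 and 298 CPM among knockdowns. The lowest knockdown library was above the highest control library at each time, and the fold was 2.96 at ZT8 (1.56 ± 0.17 on the log2 scale, adjusted p = 0.000338) and 2.37 at ZT16 (1.25 ± 0.17, adjusted p = 0.000897).

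BomS4, another short gene, showed the smallest spread of those that rose. It was at 25.9, 19.1 and 18.8 CPM among controls versus 56.1, 50.3 and 53.1 CPM among knockdowns at ZT8. At ZT16 it was at 25.3, 22.4 and 24.2 CPM among controls versus 66.7, 71.8 and 63.9 CPM among knockdowns. The groups were separate at both times, with a 2.50-fold rise at ZT8 (1.32 ± 0.11 on the log2 scale, adjusted p = 1.99e-05) and a 2.82-fold rise at ZT16 (1.49 ± 0.11, adjusted p = 9.26e-06). BomBc2, the overlapping bicipital gene, rose by less (1.05 ± 0.16 at ZT8, adjusted p = 0.00297, and 0.67 ± 0.16 at ZT16, adjusted p = 0.0167). Over both times the log2 fold change was 2.21 ± 0.18 for BomBc1, 1.41 ± 0.12 for BomS2 and 1.41 ± 0.078 for BomS4, and these 3 calls held under every alternative tried, each single library left out included.

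**Figure D1:**
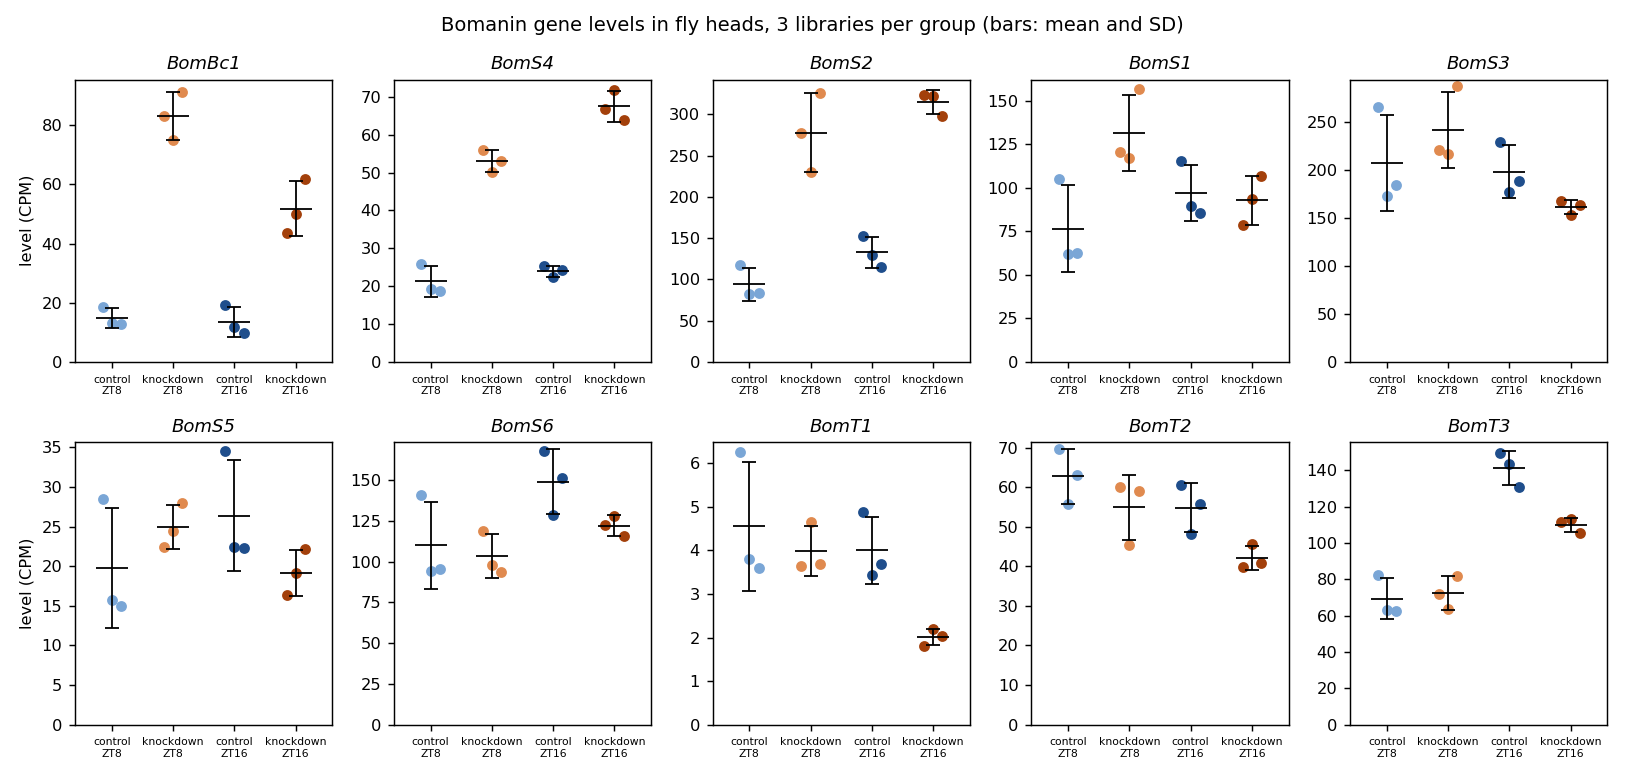
Levels of the 10 Bomanin genes in CPM (vertical axes, each starting at 0) in the 4 groups (horizontal axes). Points are libraries and bars the mean and SD of 3. In the panels of BomBc1, BomS4 and BomS2 the knockdown points lie above the control points at both times, and BomT3 is higher at ZT16 than at ZT8 in both genotypes.

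At ZT8, 4 of the 10 genes passed the test, all higher in knockdown, against a background of 15.6% of the 10717 genes tested (8.84% higher). The groups did not overlap for the same 4 genes, against 31.6% of all genes. The fourth was the short gene BomS1, at 105, 62.0 and 62.4 CPM among controls versus 120, 117 and 157 CPM among knockdowns. Control replicate 1 lay well above the other control libraries but still below every knockdown library, and the change was smaller than that of the other 3 (log2 fold change 0.78 ± 0.23, adjusted p = 0.0460). The call ended when any 1 library other than control ZT8 replicate 1 was left out (11 of 12, adjusted p 0.0512 to 0.171), without both libraries that stood apart (0.123), with no filter (0.0827) and in the 6 ZT8 libraries alone (0.128).

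The remaining 6 genes did not pass at ZT8. Their log2 fold changes were 0.22 ± 0.17 for BomS3, 0.34 ± 0.26 for BomS5, -0.09 ± 0.16 for BomS6, -0.19 ± 0.21 for BomT1, -0.19 ± 0.12 for BomT2 and 0.06 ± 0.11 for BomT3. The median over the 10 genes was 0.28, against -0.0054 over all genes tested. Control ZT8 replicate 1 had a higher level than its group mean for all 10 genes, by a median of 0.36 on the log2 scale. Without that library BomS3 (0.44, adjusted p = 0.0447) and BomS5 (0.70, adjusted p = 0.0339) also passed, which made 6 genes, and BomS6 (0.13) and BomT1 (0.11) turned positive without passing. Calls over all genes went from 1671 to 2735 under the same removal.

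At ZT16, 6 of the 10 genes passed in knockdown against control, against a background of 22.2% of all genes (11.2% higher and 11.0% lower). BomBc1, BomS2 and BomS4 were the 3 that rose, and the 3 that fell were the 3 tailed genes. The groups were separate for 9 of the 10 genes, 3 with all knockdown libraries higher and 6 with all lower, against 43.8% of all genes (21.6% all higher and 22.2% all lower). The median log2 fold change was -0.29, against -0.017 over all genes tested.

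BomT1, the least abundant of the family, was at 4.88, 3.44 and 3.69 CPM among controls versus 1.81, 2.19 and 2.03 CPM among knockdowns at ZT16. It rested on 45 to 62 reads per library in knockdown, and every knockdown library was below every control library. It fell by 0.99 ± 0.23 on the log2 scale (adjusted p = 0.0106). At ZT8, with 6.26, 3.81 and 3.61 CPM among controls versus 3.64, 4.65 and 3.68 CPM among knockdowns, the groups overlapped. Without knockdown ZT16 replicate 1 the adjusted p for ZT16 was 0.0502, and the number of Bomanin genes called at ZT16 went from 6 to 3. Calls over all genes at ZT16 went from 2379 to 1309 under the same removal.

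The other tailed genes fell by less. BomT2 was at 60.4, 48.2 and 55.7 CPM among controls versus 39.8, 45.6 and 40.8 CPM among knockdowns at ZT16 (log2 fold change -0.38 ± 0.12, adjusted p = 0.0478). BomT3 was at 149, 144 and 131 CPM among controls versus 111, 113 and 106 CPM among knockdowns (-0.36 ± 0.11, adjusted p = 0.0448). Control and knockdown libraries were separate for both genes, but the adjusted p-values lay close to the threshold. For BomT2 the adjusted p was above 0.05 once any knockdown ZT16 library was removed (0.155, 0.0641 and 0.132 for replicates 1, 2 and 3), and likewise on removal of control ZT16 replicate 1 (0.157) or 3 (0.106), control ZT8 replicate 3 (0.0673), or replicate 1 (0.0541) or 3 (0.0560) of knockdown ZT8. The BomT3 call was lost on removal of knockdown ZT8 replicate 1 (0.0636), any control ZT16 library (0.135, 0.0986 and 0.0516 for replicates 1, 2 and 3) or any knockdown ZT16 library (0.115, 0.0946 and 0.131). With no filter the adjusted p was 0.0684 for BomT2 and 0.0635 for BomT3, without both libraries that stood apart it was 0.170 and 0.104, and for BomT2 it was 0.0507 with library sizes that leave out ribosomal RNA.

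The short genes that did not rise at ZT16 had values below 0 that did not pass the test. They were -0.29 ± 0.17 for BomS3, -0.46 ± 0.26 for BomS5, -0.29 ± 0.16 for BomS6 and -0.06 ± 0.23 for BomS1. The 95% interval of BomS1 ran from -0.50 to 0.39, so it includes changes of either sign. BomS1 was at 115.2, 89.8 and 85.5 CPM among controls versus 78.4, 93.5 and 107 CPM among knockdowns, and its groups overlapped. BomBc3, the bicipital gene beside BomT3, was at 40.3, 27.6 and 28.0 CPM among controls versus 14.5, 14.6 and 17.0 CPM among knockdowns at ZT16, with separate groups and an adjusted p of 0.0516 (-1.05 ± 0.34). At ZT8 its value was -0.01 ± 0.32.

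Over both times together, 5 of the 10 genes passed, against 28.8% of all genes (14.7% higher and 14.1% lower). BomBc1, BomS2 and BomS4 rose, and in these 3 all 6 knockdown libraries were above all 6 control libraries, against 3.34% of all genes with all higher. BomT1 fell by 0.59 ± 0.16 (adjusted p = 0.0155) and BomT2 fell by 0.29 ± 0.086 (adjusted p = 0.0293). Without both libraries that stood apart the adjusted p-values were 0.0583 for BomT1 and 0.0696 for BomT2, so that 3 genes stayed called. Calls over all genes went from 3084 to 3274 under that removal. For BomT2 the call was also lost on removal of replicate 1 or 3 of control ZT8 (0.0538 and 0.0645), of control ZT16 (0.0664 and 0.0614) or of knockdown ZT16 (0.0791 and 0.0682).

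Along the cluster, the genes called higher at ZT8 were neighbours. BomBc1, BomS1, BomS4, BomBc2 and BomS2 follow each other from the second to the sixth place, on both strands. BomT1 at the left end and BomS3, BomT2, BomS5 and BomS6 at the right end did not pass at ZT8. The stretch is unbroken only with BomS1, whose call ended on removal of 11 of the 12 single libraries. Its right edge also moved, since BomS3 and BomS5 passed without control ZT8 replicate 1. At ZT16 the same stretch was higher except for BomS1. Of the tested genes around the cluster, sbb on the left, which encodes a nuclear protein, was at -0.03 ± 0.044 at ZT8 and 0.02 ± 0.044 at ZT16. On the right, the chitinase-like gene Idgf5, 3036 bases away, was at 0.42 ± 0.15 at ZT8 (adjusted p = 0.0812) and rose by 0.55 ± 0.15 at ZT16 (adjusted p = 0.0246). The glutathione S-transferase gene GstE1, 7763 bases away, rose at both times (1.61 ± 0.078, adjusted p = 2.66e-07, and 1.51 ± 0.082, adjusted p = 6.74e-07), whereas its neighbour GstE2 was at 0.01 ± 0.079 and 0.15 ± 0.083 and did not pass. Farther along the same series of transferase genes, GstE5 rose at both times (1.65 ± 0.24, adjusted p = 0.00127, and 1.14 ± 0.25, adjusted p = 0.00893). GstE6 (0.30 ± 0.057, adjusted p = 0.00506) and GstE8 (1.20 ± 0.23, adjusted p = 0.00552) rose at ZT8. At ZT16 they did not pass (-0.13 ± 0.058, adjusted p = 0.114, and 0.46 ± 0.24, adjusted p = 0.186). For GstE6 the difference between the times passed (-0.44 ± 0.081, adjusted p = 0.0230). GstE3, GstE4, GstE7 and GstE9, and beyond them imd and Dp1, passed at neither time.

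**Figure D2:**
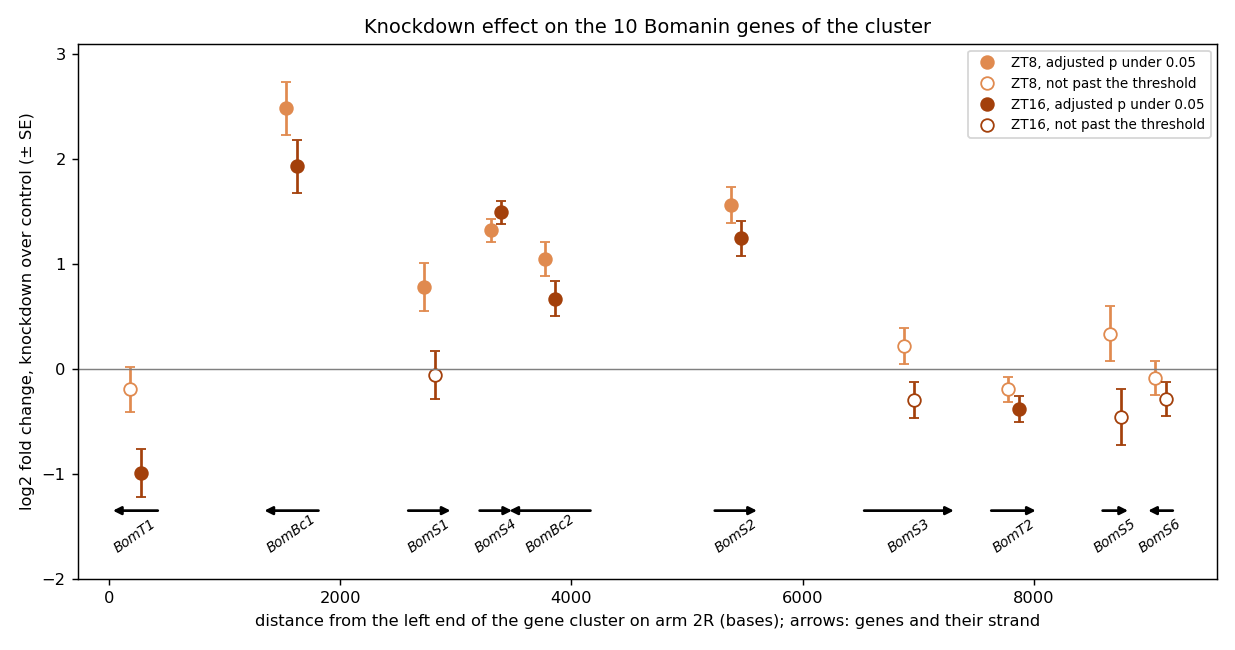
Log2 fold change of knockdown over control with its standard error (vertical axis) for the 10 Bomanin genes of the 2R cluster, against the distance in bases from its left end (horizontal axis), at ZT8 (light) and ZT16 (dark). Filled points passed the test, arrows show each gene and its strand. The filled points above 0 are BomBc1, BomS4, BomBc2 and BomS2 at both times and BomS1 at ZT8, a call that most removals of 1 library ended. Filled points below 0 are BomT1 and BomT2 at ZT16.

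The make-up of the Bomanin reads differed between the genotypes. Summed over the 10 genes, the level was 859, 581 and 600 CPM among controls versus 1034, 925 and 1180 CPM among knockdowns at ZT8. At ZT16 it was 959, 776 and 787 CPM among controls versus 972, 999 and 980 CPM among knockdowns. The sums were separate at both times, but at ZT16 control replicate 1 came close to the knockdown libraries. In TPM, the authors' length-adjusted share of transcripts, the sums overlapped at both times, and the knockdown mean was the higher at ZT8 (18050 ± 1716 against 15330 ± 2311, SD, n = 3) but the lower at ZT16 (18290 ± 284.5 against 19140 ± 1099). Of these reads, BomS2 took 13.6% to 14.1% in control and 24.9% to 27.7% in knockdown at ZT8, and 14.6% to 16.7% and 30.4% to 33.3% at ZT16. BomBc1 took 2.13% to 2.26% and 7.73% to 8.11% at ZT8, and 1.24% to 2.01% and 4.49% to 6.30% at ZT16. The mean share of BomS3 was lower in knockdown (23.0% ± 1.52 against 30.4% ± 0.60 at ZT8, and 16.4% ± 0.97 against 23.5% ± 0.70 at ZT16, SD, n = 3). That of BomS6 was also lower (10.01% ± 1.84 against 16.2% ± 0.25, and 12.4% ± 0.54 against 17.8% ± 1.35). Shares of one sum depend on each other, so a rise of BomS2 lowers the share of every other gene, and no test was made on them.

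**Figure D3:**
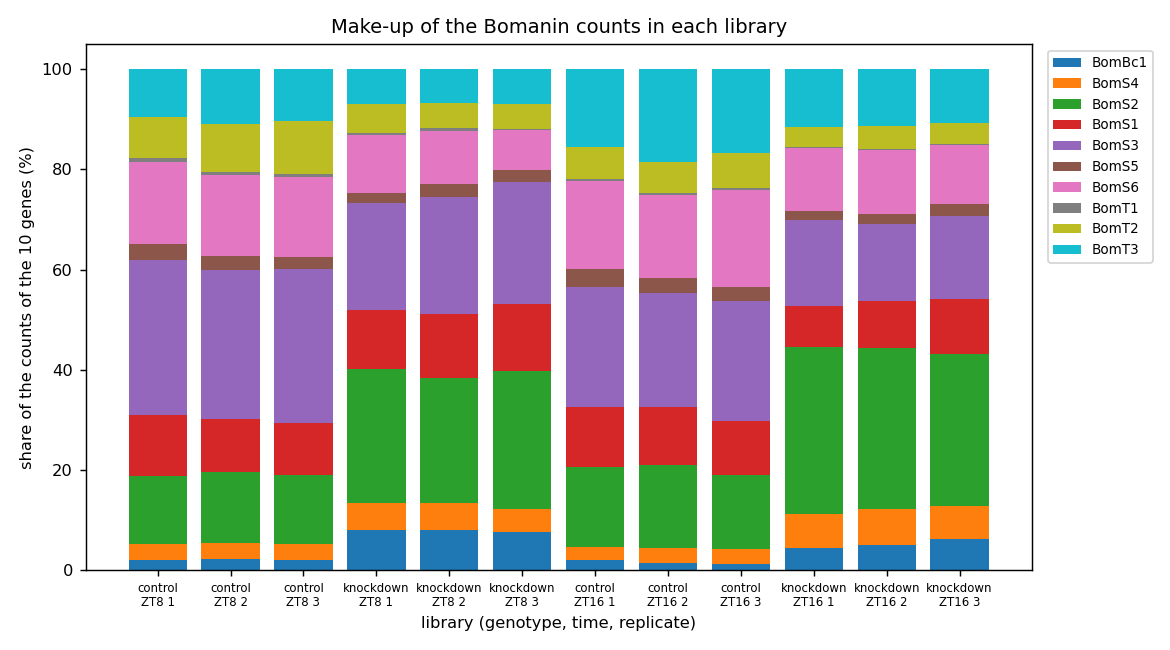
Share of each of the 10 genes in their summed counts (vertical axis, percent) in each of the 12 libraries (horizontal axis). BomS2 (green) and BomBc1 (blue) take larger shares in all 6 knockdown libraries than in all 6 control libraries.

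Per unit of length, the short genes BomS3 and BomS6 were among the highest and BomT1 the lowest in every group. In TPM, control ZT8 heads had 8353 ± 1169 for BomS6, 2997 ± 469 for BomS3, 946 ± 268 for BomS5, 887 ± 121 for BomS2 and 747 ± 183 for BomS1 (SD, n = 3). The tailed genes BomT2 and BomT3 were at 542 ± 35.6 and 331 ± 32.3 TPM, BomS4 was at 406 ± 42.6, BomBc1 at 85.6 ± 12.4 and BomT1 at 37.5 ± 9.21. In this order BomS5, BomS2 and BomS1 overlapped with their neighbours, and the others did not. BomBc1 moved from ninth place in control ZT8 to seventh in knockdown ZT8, where it was at 444 ± 50.9 TPM and overlapped with BomT2 at 439 ± 70.6. The TPM of the shortest genes rests on the effective length that RSEM assigns, which was at most 20.0 bases for BomS6 of 198 annotated and 25.7 to 31.2 for BomS5 of 218. With CPM per kilobase of annotated length, BomS6 (556 ± 134) and BomS3 (623 ± 152) overlapped in control ZT8, and BomS2 had the highest mean in knockdown at ZT8 (757 ± 131) and at ZT16 (858 ± 39.2). At ZT16 the mean of BomS6 was above that of BomS3 on this scale too, with overlap in control (753 ± 100.1 against 596 ± 83.2) and without it in knockdown (617 ± 31.7 against 486 ± 22.1). The place of BomS6 above BomS3 therefore depended on the length used at ZT8 only.

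Between ZT8 and ZT16 in control heads, 1 of the 10 genes passed, BomT3, against 23.7% of all genes (12.0% higher). BomT3 is a tailed gene outside the main cluster. It was at 82.6, 63.2 and 62.3 CPM at ZT8 and at 149, 144 and 131 CPM at ZT16 in control, and all ZT16 libraries were above all ZT8 libraries (log2 fold change 1.03 ± 0.12, adjusted p = 0.000175). The call held under every alternative tried. Its groups were the only ones of the 10 genes that did not overlap, against 38.4% of all genes. BomS2 was at 0.50 ± 0.17 (adjusted p = 0.0545) and BomS6 at 0.44 ± 0.16 (adjusted p = 0.0753). Without control ZT8 replicate 1, 6 genes passed (BomT3, BomS2 at 0.69, BomS6 at 0.65, BomS4 at 0.34, BomS1 at 0.64 and BomS5 at 0.78), and BomS2 passed as a second gene on removal of replicate 3 of knockdown ZT8 (adjusted p = 0.0469) or of control ZT16 (0.0482). Over all genes these 3 removals took the number called from 2542 to 2810, 2680 and 2089, in that order. DESeq2 called 3 genes, with BomS2 and BomS6 in addition, and 2716 over all genes. Total counts were lower and the share of ribosomal RNA was higher at ZT16 (6.40% to 9.73%, against 2.58% to 7.09% at ZT8), and their part in differences between times was not tested.

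In knockdown heads 5 of the 10 genes passed between the times, 2 higher and 3 lower at ZT16, against 23.2% of all genes (11.8% higher and 11.4% lower). BomT3 was at 72.0, 63.4 and 81.9 CPM at ZT8 and at 111, 113 and 106 CPM at ZT16, again with separate groups (0.60 ± 0.12, adjusted p = 0.00392). BomT1 fell by 0.99 ± 0.23 (adjusted p = 0.00888). These 2 calls held under every alternative. BomS4 (0.34 ± 0.11, adjusted p = 0.0377), BomS3 (-0.58 ± 0.17, adjusted p = 0.0355) and BomT2 (-0.38 ± 0.12, adjusted p = 0.0445) passed only narrowly. The groups were separate for 7 genes, against 44.2% of all genes. The number of genes that passed was 2 on removal of replicate 1 or 3 of knockdown ZT8, of any 1 knockdown ZT16 library or of both libraries that stood apart, and with no filter. Calls over all genes were 2488 in the main fit and 1572 to 2105 on these removals of 1 library. They were 2536 without both libraries and 2104 with no filter. The ranges of adjusted p over the alternatives were 0.0024 to 0.113 for BomS3, 0.00186 to 0.123 for BomS4 and 0.00857 to 0.143 for BomT2. The comparisons between times use the same libraries as those between genotypes.

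The knockdown effect did not differ between ZT16 and ZT8 at the threshold for any of the 10 genes in the edgeR test, against 4.18% of all genes called. At an unadjusted p under 0.05 there were 3, BomS1 (-0.84 ± 0.32, adjusted p = 0.169), BomT1 (-0.80 ± 0.31, adjusted p = 0.165) and BomT3 (-0.42 ± 0.16, adjusted p = 0.161), all with the lower value at ZT16. DESeq2 called 1, BomS1 (adjusted p = 0.0462), and 950 over all genes. Without control ZT8 replicate 1, 5 passed, BomS1 (-1.14), BomS3 (-0.73), BomS5 (-1.15), BomT1 (-1.10) and BomT3 (-0.57). Calls over all genes went from 448 to 1107 under that removal. For BomBc1 the difference was -0.55 ± 0.35, with a 95% interval from -1.23 to 0.13. For BomS4 it was 0.17 ± 0.15, from -0.13 to 0.47.

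BomT3 and BomS3 have more than 1 annotated transcript, and in both the share of the longer form was lower at ZT16. BomT3 variant A (657 bases) and variant C (503 bases) share their coding sequence of 351 bases and differ at the 3′ end. Variant A took 16.3%, 17.5% and 19.3% of the BomT3 counts in control and 15.02%, 19.0% and 17.1% in knockdown at ZT8. At ZT16 it took 9.29%, 5.98% and 6.29% in control and 5.88%, 6.49% and 7.02% in knockdown. No ZT16 library reached the level of any ZT8 library (mean difference -10.5 percentage points, two-sided exact permutation p = 0.00217, the smallest that 6 libraries against 6 can give, 0.00433 after adjustment over 4 tests). Between genotypes the difference was -0.70 percentage points (exact permutation p = 0.760), and the genotypes overlapped at each time. That permutation did not hold time fixed, so the large difference between times enters it and a small genotype difference could be missed. Variant C was at 57.2 ± 10.4 CPM at ZT8 and 131 ± 7.28 CPM at ZT16 in control, and at 60.2 ± 8.34 and 103 ± 4.07 CPM in knockdown (SD, n = 3). Variant A was at 12.2 ± 1.22 and 10.2 ± 3.16 CPM in control and at 12.3 ± 1.59 and 7.10 ± 0.48 CPM in knockdown.

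The longer variant B of BomS3 (769 bases, against 301 in variant A, with the same coding length of 117 bases) behaved likewise. It took 6.79% to 8.95% of the BomS3 counts at ZT8 and 3.93% to 5.30% at ZT16, with no overlap (-3.25 percentage points, exact permutation p = 0.00217, 0.00433 after adjustment). Between genotypes the difference was -0.59 percentage points (exact permutation p = 0.569, 0.759 after adjustment), again from a permutation that did not hold time fixed. The genotypes overlapped at each time. Variant counts are RSEM estimates that divide the reads in the shared part, and RSEM's effective lengths differed between libraries by 13.0% for variant A of BomS3 and 3.36% for variant B. These lengths tended to be lower at ZT16. They were 89.7 to 95.6 bases at ZT8 and 84.6 to 93.6 at ZT16 for variant A of BomS3. For variant C of BomT3 they were 283.9 to 291.0 and 274.9 to 286.2 bases. The part of effective length and of depth in the variant shares was not tested.

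**Figure D4:**
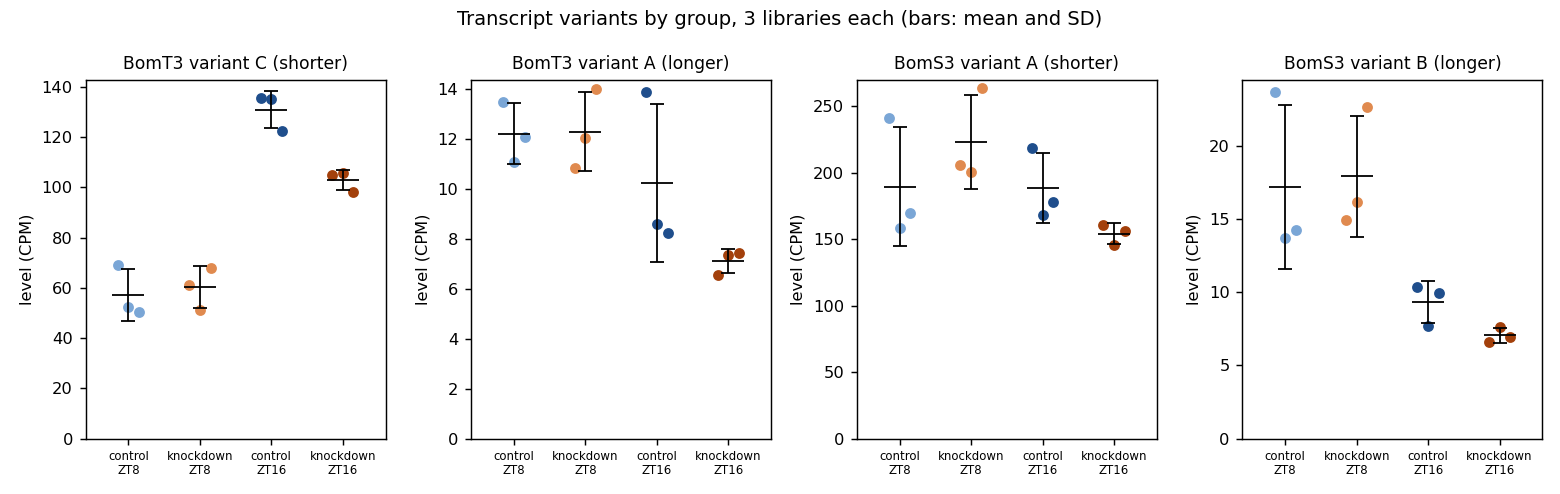
Levels of the shorter and longer transcript variants of BomT3 and BomS3 in CPM (vertical axes, each starting at 0) in the 4 groups (horizontal axes). Points are libraries, bars the mean and SD of 3. BomT3 variant C is higher at ZT16 in both genotypes, whereas BomS3 variant B is lower at ZT16 in both.

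After the group means were removed, all 45 pairs of genes had a positive Pearson r over the 12 libraries, with a median of 0.71 and a range from 0.32 (BomT1 and BomT2) to 0.98 (BomS2 and BomT3). The points share libraries and sequencing depth. In control ZT8 replicate 1 and in control ZT16 replicate 1 all 10 genes were above their group mean, by medians of 0.36 and 0.22 on the log2 scale. Without these 2 libraries, a choice made after seeing the data, 27 of the 45 pairs had a positive r over the other 10 libraries, with a median of 0.22 and a range from -0.74 to 0.99, so the positive values of the full set rest largely on them. Of 8250 other genes at 5 CPM or more, those whose level followed the sum of the 10 genes most closely over the 12 libraries were Mtp (r = 0.96), a lipid transfer protein gene, CG11134 (0.95), CG10680 (0.95), fit (0.95), which encodes a satiety peptide of the fat body, and CROT (0.94). Here the group means were not removed and the 2 libraries were kept, so these r also hold differences between groups. They are the highest of 8250 values. Mtp ranged from 65.0 to 115.1 CPM and fit from 41.1 to 476 CPM.

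Of the Toll pathway upstream of the receptor, 14 genes were tested, and 4 rose and 2 fell at ZT8, while 1 rose and 3 fell at ZT16. Over all genes tested, 15.6% were called at ZT8 (8.84% higher) and 22.2% at ZT16 (11.2% higher and 11.0% lower). This background holds for each list below, and no list was tested as a set. GNBP1, a recognition protein for Gram-positive bacteria, rose at both times (0.55 ± 0.062, adjusted p = 0.000201, and 0.42 ± 0.063, adjusted p = 0.001). PGRP-SD, another recognition protein, was at 32.4, 23.7 and 26.0 CPM among controls versus 6.94, 5.23 and 14.2 CPM among knockdowns at ZT8, and fell at both times (-1.64 ± 0.30, adjusted p = 0.00683, and -2.57 ± 0.34, adjusted p = 0.000905). The serpin gene Spn88Ea fell as well (-0.41 ± 0.076 and -0.50 ± 0.076), and the protease gene grass rose at ZT8 (0.33 ± 0.068). Of 13 genes from the receptor to the nucleus, 3 rose and 1 fell at ZT8, and 0 rose and 1 fell at ZT16. The adaptor gene Myd88 (0.24 ± 0.057) and dl, which encodes Dorsal (0.25 ± 0.072), were higher at ZT8, and for both the effect was lower at ZT16 by the test of the difference (-0.32 ± 0.081, adjusted p = 0.0498, and -0.41 ± 0.10, adjusted p = 0.0475). The median log2 fold changes of these lists were 0.25 and -0.03 upstream, and 0.06 and 0.0012 from the receptor on, against -0.0054 and -0.017 over all genes tested.

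Among 10 other peptide genes listed with the Toll response, 7 were tested, 1 rose at ZT8, and 1 rose and 1 fell at ZT16, against 15.6% and 22.2% of all genes called. The list includes Drosomycin-like genes and relatives of the Baramicin gene, and which of its genes Toll induces was not examined. Drsl5, a Drosomycin-like gene, was at 52.4, 41.5 and 42.7 CPM among controls versus 136, 96.7 and 72.6 CPM among knockdowns at ZT8, and rose at both times (1.16 ± 0.23, adjusted p = 0.0102, and 1.24 ± 0.23, adjusted p = 0.006). CG33470, listed in RefSeq also as BaraA1, which encodes the precursor of the Baramicin peptides, was at 670, 621 and 606 CPM among controls versus 259, 296 and 311 CPM among knockdowns at ZT16 (-1.13 ± 0.14, adjusted p = 0.000411). At ZT8 its libraries overlapped, at 449 to 699 CPM over both genotypes, and the difference between the times passed the test (-0.97 ± 0.19, adjusted p = 0.0302). The related gene IMPPP, which RefSeq also lists as BaraA2, had at most 0.0984 CPM, and reads shared by this pair could be divided wrongly. Drosomycin (Drs) varied from 9.22 to 118 CPM with overlapping groups. Over both times 1 of the 7 genes rose, Drsl5, and 2 fell, CG33470 and Metchnikowin (Mtk), against 14.7% higher and 14.1% lower over all genes. Mtk fell by 2.09 ± 0.54 (adjusted p = 0.0204) and was called at neither time alone. At ZT8 it was at 109, 162 and 166 CPM among controls versus 12.0, 17.5 and 75.4 CPM among knockdowns. Of 6 secreted genes of the Toll response in another list, which shares nec and Spn42Dd with the 14 upstream genes, 1 rose at ZT8, the serpin gene Spn28Dc (0.32 ± 0.094, adjusted p = 0.0374), and 0 passed at ZT16. Among them CG18067, also known as bombardier, whose product is needed in the fly for short Bomanin peptides to be present in the blood, had 1108, 560 and 565 CPM among controls versus 718, 691 and 793 CPM among knockdowns at ZT8, with overlapping groups (-0.02 ± 0.24, adjusted p = 0.968). At ZT16 it had 935, 770 and 784 CPM among controls versus 500, 577 and 647 CPM among knockdowns, and every knockdown library was below every control library, but the change did not pass (-0.53 ± 0.24, adjusted p = 0.142).

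The Imd pathway, which responds mainly to Gram-negative bacteria, has its own peptides. Of 12 such genes, 0 passed at ZT8, 3 fell at ZT16 and 7 fell over both times. Over all genes tested, 15.6% were called at ZT8, and 11.0% and 14.1% were called lower at ZT16 and over both times. Their summed level at ZT8 was 821 to 1083 CPM among controls versus 59.3, 70.4 and 884 CPM among knockdowns. At ZT16 the sum was 184 to 654 CPM among controls versus 23.8 to 64.9 CPM among knockdowns. Knockdown ZT8 replicate 3 lay with the control ZT8 libraries in this sum, whereas its BomBc1 level was the highest of all 12 libraries. Single peptide genes of this library lay outside the control ZT8 range on either side. AttA was above it (72.4 CPM against 6.84 to 16.8) and DptB below it (95.5 CPM against 175.5 to 193).

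The fat body is the main source of Bomanins. Of its 9 markers, 1 rose at ZT8, the nuclear receptor gene Hnf4 (0.32 ± 0.052, adjusted p = 0.00221), 0 passed at ZT16 and 3 rose over both times, with 0 falling in any of these. The median log2 fold change of the fat body markers was 0.30 at ZT8 and 0.16 at ZT16. Their summed level was 7931 to 11220 CPM among controls versus 10740 to 14040 CPM among knockdowns at ZT8, and 8949 to 9928 and 10670 to 11510 CPM at ZT16. The fat body protein gene Fbp1 was near 0, at 0.0756 to 0.75 CPM, and the storage protein gene Lsp2 ranged from 8.30 to 856 CPM. Of 7 markers of blood cells, 0 passed in either genotype comparison, and their sums overlapped between genotypes at ZT8 (1276 to 1637 and 969 to 2118 CPM) but not at ZT16 (1513 to 1608 and 1690 to 1955 CPM). Of 4 muscle markers, 3 were higher in knockdown at each time, with sums of 1684 to 1808 against 2121 to 2759 CPM at ZT8 and 2353 to 2515 against 2982 to 3347 CPM at ZT16. Of 4 photoreceptor markers, 3 were lower at ZT8 and 2 at ZT16. Of 4 neuron markers, 3 were lower at ZT8 (brp, Syt1 and elav) and 1, Syt1, was higher at ZT16, with sums of 3078 to 3341 against 2769 to 2936 CPM at ZT8 and 2614 to 2856 against 2896 to 3155 CPM at ZT16. Of 4 glia markers, 0 passed at ZT8 and nrv2 was higher at ZT16 (0.43 ± 0.066, adjusted p = 0.00122), where the sums were 987 to 1110 against 1199 to 1291 CPM. The part of cell content in the Bomanin values was not tested.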

How the data were processed

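Per the labels' protocols, QIAzol was used for extraction and the TruSeq Stranded mRNA kit for library making. STAR 2.6.0c, RSEM 1.3.1 and the dm6 genome were used by the authors, per the submitters' processing notes. The deposited values were RSEM expected counts per transcript, held as whole numbers, with FPKM and TPM computed by the authors; FPKM was not used. The strand setting, annotation release and filters are not given in the sources used here. Control ZT16 columns lack the digit 2 of their labelled names; time and number matched them.

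Expected counts were summed per gene and tested with edgeR 4.0.16 (R 4.3.3): TMM factors, filterByExpr at a minimum count of 10, 4 group means over 12 libraries, robust quasi-likelihood F test with 8 residual degrees of freedom, and Benjamini-Hochberg adjustment over 10717 genes, called at 0.05. The SE is the size of the log2 fold change over the root of F, and intervals are 1.96 SE on each side. This normal multiplier gives intervals narrower than 95% intervals that match the F test. CPM are counts over the scaled library size, times 1e6. The fit was tested on simulated data. Coordinates, strands and lengths are from the BDGP6.54 annotation, whose assembly is that of dm6, and older symbols of list genes were matched through the RefSeq gene table. Variant shares were tested with two-sided exact permutations of 12 libraries (scipy 1.17.1), which held neither time nor genotype fixed.

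The naming rule allowed every Bomanin gene and, per list and genotype comparison, up to 4 called genes (2 between times); Drs, CG18067, IMPPP, Lsp2, Fbp1 and genes around the cluster were named after their values were seen. The members, lists and tests were chosen with earlier results of these data known. Within each group no 2 libraries were identical, and every pair differed by more than counting noise (median chi-square over genes 1.07 to 7.43, against 0.455 for noise alone). The largest values, 7.30 and 7.43, were those of control ZT8 replicate 1 against replicates 2 and 3, which differed from each other by 1.07. Alternatives were DESeq2 size factors, DESeq2 1.42.0, no filter, library sizes without 118 rRNA genes, a replicate block, the 6 libraries of a comparison alone, each library left out, both libraries that stood apart left out, and limma 3.58.1 on log2(TPM + 0.1). No sequences are shown, and the planned motif search in promoters was not run.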

Additional observations from a re-analysis of the deposited data

How the results depend on the processing

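Over all alternatives, 1180 values of single genes were recomputed: 1059 kept their direction and side of the threshold, 69 lost their call, 32 gained one and 20 changed sign, all 20 of them values without a call. Of 415 values of called results, 346 kept the call. Counts of Bomanin genes called were 4 at ZT8 (3 to 6 with 1 library left out), 6 at ZT16 (3 to 6), 5 over both times (4 to 5, and 3 without both libraries that stood apart), 1 between times in control (1 to 6, and 3 with the replicate block, with limma on TPM and with DESeq2), 5 between times in knockdown (2 to 6, and 2 with no filter or without both libraries that stood apart) and 0 for the difference of effects (0 to 5, and 1 with DESeq2). Calls over all genes moved as well with 1 library left out. They lay between 673 and 2735 at ZT8, 1309 and 2759 at ZT16, and 19 and 1107 for the difference of effects. Over both times, limma on TPM also called BomS6 (-0.20, adjusted p = 0.0445) and BomT3 (-0.235, adjusted p = 0.0233) lower. DESeq2 also called BomS1 higher there (0.36, adjusted p = 0.0444). At ZT8, limma on TPM also called BomT2 lower (-0.32, adjusted p = 0.0484). In limma the median over all genes tested was -0.11 over both times and -0.14 at ZT8. Deviations from the group means had r from -0.148 to 0.234 in 18 pairs of same-number libraries from different groups, 5 of them above 0.1. Pairs with different numbers were not compared, so these values cannot tell whether the replicate numbers pair the libraries. With the block, BomS1 at ZT8 lost its call (adjusted p = 0.0618), and BomS2 (0.0423) and BomS6 (0.0189) gained one between times in control. Values that changed sign were BomT3 at ZT8 (0.06; -0.022 without both libraries that stood apart, -0.056 with limma on TPM, -0.022 to 0.21 with 1 library left out), BomS1 at ZT16 (-0.06; 0.085 without both, -0.17 to 0.084) and BomS5 over both times (-0.06; 0.023 without both, -0.13 to 0.12). With 1 library left out, ranges that crossed 0 were -0.20 to 0.13 for BomS6 and -0.33 to 0.11 for BomT1 at ZT8, -0.098 to 0.072 for BomS3 over both times, and -0.18 to 0.15 for BomS3, -0.35 to 0.11 for BomT1 and -0.47 to 0.061 for BomBc1 between times in control. The cause of these changes was not tested. BomT1, with 45 to 231 reads per library, was the member most limited by depth.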
